A study of Mus musculus with 2 samples.

Results

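Collagens and laminins are the chains from which fibrils and basement membranes are built. They were taken here as every gene in the table whose symbol reads Col, a number, the letter a and a number, or Lam, a letter from a to c and a digit. The pattern found 55 genes of 32286, 44 collagen chains and 11 laminin chains, and 39 of them had at least 20 UMIs (unique molecular identifiers, 1 per captured transcript) over both libraries. In all, 15138 genes reached that level. The study profiled nuclei from regenerating mouse liver in 2 libraries, 1 labelled wild-type and 1 labelled Cox10-/-. Cox10 encodes an enzyme of heme A synthesis for respiratory complex IV. All mice carried a floxed Cox10 allele and had been injected with AAV8-GFP or AAV8-Cre, an adeno-associated virus that mainly infects hepatocytes, 4 weeks before a 70% partial hepatectomy. The labels used here give neither the virus each animal received, nor the promoter that drove Cre, nor how many animals, of what age, stood behind a library. The protocol places dissection 4 days after surgery and the sample characteristics give 4 weeks, which leaves the time after surgery uncertain.

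A collagen molecule is a triple helix of chains, and a laminin is a cross-shaped trimer of an alpha, a beta and a gamma chain. Fibrillar collagens such as types I, III and V bear load in scar and portal tissue, whereas type IV collagen forms the network of basement membranes, to which laminins bind through nidogen and perlecan. Normal liver sinusoids lack a continuous basement membrane, and hepatic stellate cells are the best known source of collagen when liver is injured. Col4a1 and Col4a2 make the common type IV network. Col4a3, Col4a4 and Col4a5 make the network known from kidney glomeruli, and mutations in them cause Alport syndrome.

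The type IV genes lie in head-to-head pairs, and the DNA between partners is shown because Col4a3 and Col4a4 were both higher in Cox10-/- hepatocyte-like nuclei, and Col4a5 and Col4a6 were both highest in cholangiocyte-like nuclei. On mm10, Col4a4 (ENSMUSG00000067158.9) spans chromosome 1 from 82448423 to 82586849 on the minus strand, and Col4a3 (ENSMUSG00000079465.8) from 82586921 to 82722059 on the plus strand, with 71 bases between them. Col4a6 (ENSMUSG00000031273.16) spans chromosome X from 141165403 to 141474076 on the minus strand, and Col4a5 (ENSMUSG00000031274.16) from 141475385 to 141689234 on the plus strand, with 1308 bases between them. The stretches below overlap no annotated exon of GENCODE vM21 and come from RefSeq's promoter windows on GRCm38.p6, which held 28 of the 39 chains. Capitals mark the only matches, on either strand, to 3 short strings, none overlapping another: TATAAA, the letters of a TATA box, then CCAAT, bound by the factor NF-Y, and then GGGCGG, the letters of a GC box.
Col4a4-Col4a3 gap, chr1:82586850-82586920, plus strand: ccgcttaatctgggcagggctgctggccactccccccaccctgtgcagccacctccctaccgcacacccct
Col4a6 upstream, chrX:141474077-141474326, minus strand: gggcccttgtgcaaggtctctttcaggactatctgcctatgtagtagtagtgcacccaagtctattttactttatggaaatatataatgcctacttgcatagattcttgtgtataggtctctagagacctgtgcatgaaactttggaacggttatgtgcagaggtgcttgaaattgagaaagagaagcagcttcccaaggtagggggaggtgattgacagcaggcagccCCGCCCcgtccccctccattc
Col4a5 upstream, chrX:141475169-141475384, plus strand: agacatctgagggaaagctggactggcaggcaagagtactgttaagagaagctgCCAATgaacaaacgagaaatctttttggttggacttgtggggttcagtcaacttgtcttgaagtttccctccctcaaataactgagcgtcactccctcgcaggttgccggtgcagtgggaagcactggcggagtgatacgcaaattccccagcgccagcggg
The Col4a4-Col4a3 gap was 69.0% G and C, against a median of 54.9% over the 71 bases upstream of 27025 genes, and held none of the 3 letter strings. Of those 71-base windows, 4.72% held TATAAA, while 13.9% held CCAAT and 21.2% held the string GGGCGG. The GGGCGG match before Col4a6 reads on the opposite strand, and 32.9% of 250-base windows hold that string. CCAAT, found before Col4a5, is in 31.5% of 216-base windows, so these matches are common and describe letters only.

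There were 5448 nuclei with 17703804 UMIs in the wild-type library, and 5167 nuclei with 14476400 UMIs in the Cox10-/- library. Clustering without the chains themselves gave 21 clusters, which were named from marker lists as hepatocyte-like, endothelial-like, stellate-like, myeloid-like, lymphoid-like or cholangiocyte-like, or left unnamed. The 2 libraries differed in makeup: hepatocyte-like nuclei were 95.3% of the wild-type library (5194) and 33.8% of the Cox10-/- library (1744), whereas stellate-like nuclei were 0.606% (33) and 14.5% (749) and endothelial-like nuclei 0.844% (46) and 27.4% (1416). Cholangiocyte-like nuclei numbered 9 and 84. Each hepatocyte-like cluster was drawn almost wholly from 1 library, and the libraries shared 7 cell barcodes. Median mitochondrially encoded UMIs were 12.6% and 8.92%. All 12 hepatocyte markers, 14 endothelial markers and 14 stellate markers were found in the nuclei named for them in the Cox10-/- library. Hepatocyte markers were also high elsewhere: their summed level was 44772 CPM in hepatocyte-like nuclei of that library and 19083 CPM to 30036 CPM in the other 5 cell types. Cox10 itself was at 34.7 CPM (UMIs of a gene per 1000000 UMIs of the nuclei named) in wild-type and 38.8 CPM in Cox10-/- hepatocyte-like nuclei. The labels do not give the floxed exon, and a 3' tag outside it checks nothing, so genotypes are named as labelled. Each genotype is 1 library, so no test was possible and no p-value is given. Ranges in parentheses are exact 95% intervals that cover counting error only, not differences between animals or preparations.

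Stellate-like nuclei held the most matrix chain RNA. Summed over the 39 chains, the level was 4683 CPM (4590 to 4778) in stellate-like nuclei of the Cox10-/- library, 1565 CPM (1432 to 1708) in cholangiocyte-like, 1512 CPM (1470 to 1556) in endothelial-like, 747 CPM (724 to 771) in hepatocyte-like, 421 CPM (345 to 508) in lymphoid-like and 298 CPM (272 to 326) in myeloid-like nuclei. In the wild-type library the sum was 1973 CPM (1706 to 2270) in stellate-like, 1254 CPM (1036 to 1506) in endothelial-like, 833 CPM (629 to 1081) in lymphoid-like, 770 CPM (757 to 784) in hepatocyte-like and 534 CPM (414 to 679) in myeloid-like nuclei. Stellate-like nuclei led in both. Single chains made up much of these sums in the Cox10-/- library. Col14a1 gave 1408 CPM of the stellate-like sum. Col18a1 gave 465 CPM of the hepatocyte-like, 152 CPM of the lymphoid-like and 149 CPM of the myeloid-like sum. The wild-type sums outside hepatocytes rest on 56 to 195 chain UMIs, and the 9 cholangiocyte-like nuclei there gave 37.

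Each chain was then assigned to the cell type with its highest level in the Cox10-/- library, which has enough nuclei of all 6. Stellate-like nuclei were highest for 19 of 39 chains, cholangiocyte-like for 10, lymphoid-like for 4, hepatocyte-like and endothelial-like for 3 each, and myeloid-like for 0. Over all 15131 genes with a UMI there, those shares were 10.4% for stellate-like, 19.8% for cholangiocyte-like, 24.9% for lymphoid-like, 17.9% for hepatocyte-like, 12.3% for endothelial-like and 14.7% for myeloid-like nuclei. A chain's peak was called separate when its interval lay above those of all other cell types. Of all 39 chains 38.5% (15) had a separate peak in stellate-like nuclei, beside 3.19% of all genes. The shares were 10.3% (4) beside 2.48% for cholangiocyte-like, 7.69% (3) beside 5.02% for hepatocyte-like, 7.69% (3) beside 2.84% for endothelial-like, 0 beside 2.82% for lymphoid-like and 0 beside 3.88% for myeloid-like nuclei. Lymphoid-like peaks rested on 1 to 5 UMIs each, in Col11a2, Col20a1, Col23a1 and Lamb3.

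**Figure D1:**
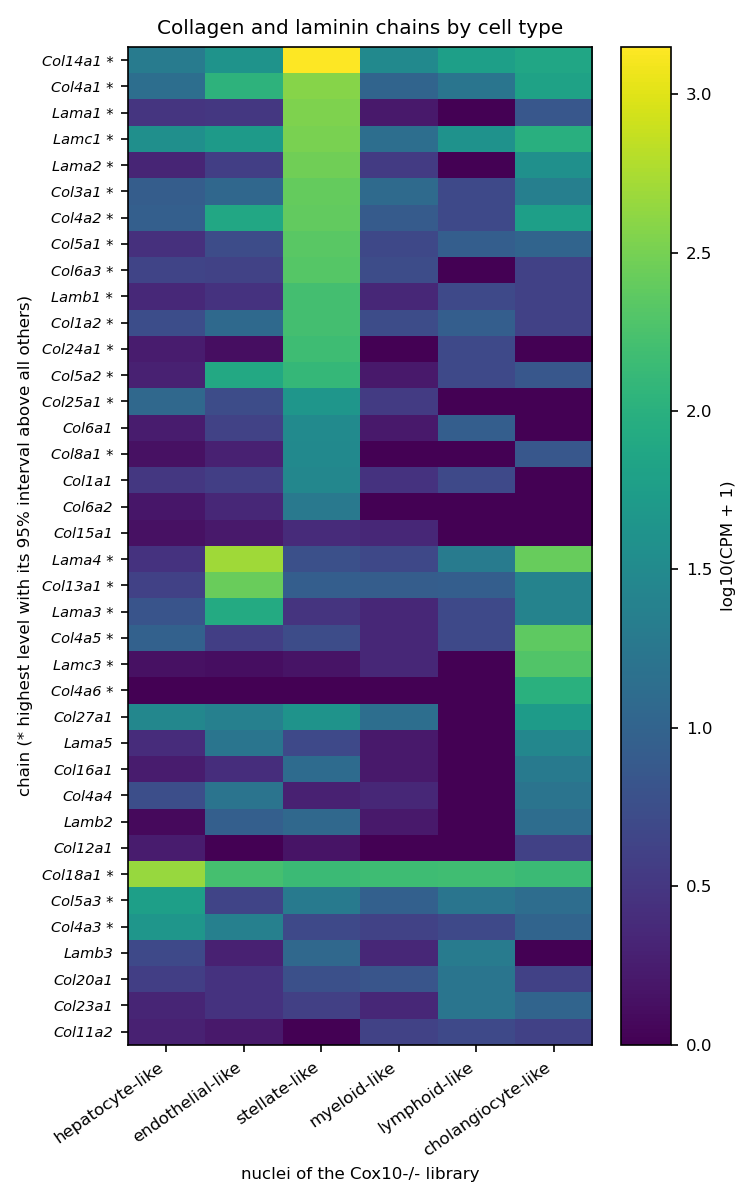
Level of the chains reported (rows) in 6 cell types (columns) of the Cox10-/- library as log10(CPM + 1), ordered by the cell type with the highest level; an asterisk marks a chain whose 95% Poisson interval there lies above all others. The stellate-like block at the top holds 19 chains, and Col18a1 is seen in every column.

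Of 9 kept fibrillar chains 6 were highest in stellate-like nuclei of the Cox10-/- library. The others were Col5a3, highest in hepatocyte-like, Col27a1, highest in cholangiocyte-like at 52.7 CPM (30.7 to 84.4), and Col11a2, highest in lymphoid-like nuclei on 1 UMI. In the wild-type library, where hepatocyte-like nuclei prevail, Col27a1 and Col5a3 gave 1471 and 1068 UMIs in those nuclei, of 2732 fibrillar UMIs in all. Col3a1, the type III chain, had 254 CPM (232 to 277) in stellate-like nuclei of the Cox10-/- library, and at most 21.7 CPM in any other cell type. Its level was 192 CPM (116 to 300) in wild-type stellate-like nuclei. Col1a2, a chain of type I collagen, was at 158 CPM (142 to 177) there in the Cox10-/- library and at 11.1 CPM (7.72 to 15.4) in endothelial-like nuclei, the next highest. Col1a1, its partner, gave only 87 UMIs, all from the Cox10-/- library. Its 0 UMIs in wild-type stellate-like nuclei allow up to 30.4 CPM there (at 3 UMIs). A difference between libraries was thus not resolved in those nuclei. In stellate-like nuclei of the Cox10-/- library Col1a1 was at 27.7 CPM (21.0 to 35.9). Col5a1, which starts fibril assembly, followed the same order with 218 CPM (199 to 239) against 9.30 CPM or less elsewhere. Its partner chain Col5a2 did not: endothelial-like nuclei held 77.6 CPM (68.2 to 88.0), close below the 123 CPM (109 to 140) of stellate-like nuclei. Col24a1, a minor fibril chain, was the narrowest of these, with 306 of its 312 UMIs in named Cox10-/- nuclei found in stellate-like ones.

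Other stellate-led chains sit on or beside fibrils. Col14a1, which coats collagen fibrils, was at 1408 CPM (1357 to 1460) in stellate-like nuclei of the Cox10-/- library, where 88.1% of nuclei had a UMI, and at 304 CPM (205 to 433) in those of the wild-type library. Col6a3, of the beaded microfibrils of type VI collagen, was at 206 CPM (187 to 226), and its partners Col6a1 and Col6a2 at 31.1 CPM and 17.5 CPM, all with stellate-like nuclei highest. Col8a1, a short-chain network collagen, was at 30.1 CPM (23.1 to 38.6). Col25a1, a transmembrane collagen known from brain, was at 44.2 CPM (35.6 to 54.3) in stellate-like nuclei and had its next highest level, 10.5 CPM (7.88 to 13.6), in hepatocyte-like nuclei. In the wild-type library Col25a1 was at 8.76 CPM (148 UMIs) in hepatocyte-like nuclei and at 10.1 CPM in stellate-like ones, on 1 UMI.

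The laminin chains divided by cell type. Lama1 and Lama2, the alpha chains of laminins named for embryonic membranes and for muscle, were at 349 CPM (324 to 376) and 289 CPM (266 to 313) in stellate-like nuclei of the Cox10-/- library, with 718 of 739 and 594 of 625 named-lineage UMIs there. Lamb1, the common beta chain, was at 160 CPM (144 to 179) in stellate-like nuclei and at 3.90 CPM or less elsewhere. Lamc1, the common gamma chain, was found in all 6 cell types, with 325 CPM (301 to 350) in stellate-like, 96.1 CPM in cholangiocyte-like, 51.6 CPM in endothelial-like, 39.0 CPM in lymphoid-like, 36.3 CPM in hepatocyte-like and 12.6 CPM in myeloid-like nuclei.

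Endothelial-like nuclei carried a different alpha chain. Lama4, the alpha chain of vascular laminin, was at 498 CPM (474 to 523) in those of the Cox10-/- library and at 491 CPM (358 to 657) in the 46 of the wild-type library. Cholangiocyte-like nuclei were next with 257 CPM (205 to 319), from 32 of 84 nuclei, and stellate-like nuclei were at 4.86 CPM. The 14 endothelial markers summed to 490 CPM in those cholangiocyte-like nuclei, with 0 markers at 0, and to 11088 CPM in endothelial-like ones, and their part in the Lama4 value was not tested. Lama3, an alpha chain of epithelial laminin, was at 83.0 CPM (73.2 to 93.7) in endothelial-like nuclei and at 76.3 CPM (30.7 to 157) in those of the wild-type library. Col13a1, a transmembrane collagen of cell contacts, was at 267 CPM (249 to 286) and 294 CPM (194 to 428). In both libraries, then, the level of each of these 3 was higher in endothelial-like nuclei than in hepatocyte-like nuclei, where the Cox10-/- values were 1.90 CPM, 5.51 CPM and 3.04 CPM.

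Within the endothelial-like nuclei of the Cox10-/- library, finer clusters differed in several chains. Lama4 was at 594 CPM (558 to 632) in 670 nuclei led by Stab2, a sinusoidal scavenger receptor, and at 256 CPM (211 to 308) in 188 nuclei led by Cdh13, Wnt2 and Kit, genes known from endothelium near central veins. Lama3 had the opposite order in those 2 clusters, 80.7 CPM (67.7 to 95.5) and 136 CPM (104 to 175), and Col4a1 did too, with 107 CPM (91.8 to 124) and 175 CPM (138 to 218). Col5a2 was at 316 CPM (246 to 400) in 86 nuclei led by Mecom and Adgrg6, against 52.2 CPM to 97.5 CPM in the other 3 clusters. Col13a1 stayed between 227 CPM and 322 CPM in all 4.

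Cholangiocyte-like nuclei held the second pair of head-to-head genes whose upstream letters are printed above. Col4a6 gave 32 UMIs in named Cox10-/- nuclei and all 32 were cholangiocyte-like, 99.2 CPM (67.8 to 140), while 0 UMIs in hepatocyte-like nuclei allow up to 0.570 CPM there (3 UMIs). Col4a5 was at 236 CPM (186 to 295) there, and at 8.56 CPM (6.24 to 11.4) in hepatocyte-like nuclei, the next highest. Lamc3, a gamma chain outside the common laminins, was at 195 CPM (150 to 250), with 63 of 69 UMIs in these 84 nuclei. The 9 cholangiocyte-like nuclei of the wild-type library gave 5 UMIs of Col4a5, 3 of Col4a6 and 8 of Lamc3. These counts are small, but all 3 chains were present in both libraries. The cholangiocyte-like peaks in Col27a1, Lama5, Col16a1, Col4a4, Lamb2 and Col12a1, rested on 1 to 17 UMIs and were not separate from the next cell type.

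Col4a1 and Col4a2, the common type IV chains, were shared by stellate-like and endothelial-like nuclei. Col4a1 was at 380 CPM (354 to 407) and 107 CPM (95.7 to 119) in the Cox10-/- library, and Col4a2 at 245 CPM (224 to 267) and 75.7 CPM (66.4 to 85.9). Cholangiocyte-like nuclei followed with 65.1 CPM and 58.9 CPM. The genes overlap at their starts on opposite strands, and whether the authors' counting used strand is not given in the sources used here, so reads from their first exons could be split between them.

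Hepatocyte-like nuclei led for only 3 chains. Col18a1, whose cleaved end is the angiogenesis inhibitor endostatin, was at 465 CPM (447 to 484) in the Cox10-/- library and 520 CPM (509 to 530) in the wild-type library. In the other cell types of the Cox10-/- library it ran from 139 CPM to 165 CPM. In the few other nuclei of the wild-type library it ran from 120 CPM to 506 CPM, so its lead was seen less clearly there. Slc19a1 overlaps its 3' end on the other strand. The hepatocyte markers above moved in the same way between cell types, and their part in the levels outside hepatocytes was not tested. Col5a3, a variant chain of type V collagen, was at 58.4 CPM (52.0 to 65.3) and 63.2 CPM (59.5 to 67.1), with stellate-like nuclei of the Cox10-/- library next at 18.5 CPM (13.1 to 25.4). The third was Col4a3.

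Col4a3, the chain of kidney-type basement membrane, gave 25 UMIs in 5194 wild-type hepatocyte-like nuclei and 232 UMIs in 1744 Cox10-/- ones, that is 1.48 CPM (0.957 to 2.18) and 44.1 CPM (38.6 to 50.2). The ratio was 29.8 (19.7 to 47.0). A long noncoding gene, C430014B12Rik, overlaps the 3' end of Col4a3 on the other strand, and UMIs of either could be counted if strand was not used. In the Cox10-/- library endothelial-like nuclei were next with 22.5 CPM (17.6 to 28.4), followed by cholangiocyte-like at 9.30 CPM (1.92 to 27.2), stellate-like at 3.89 CPM (1.68 to 7.66), lymphoid-like at 3.90 CPM and myeloid-like nuclei at 3.15 CPM (1.02 to 7.36). The hepatocyte-like interval lay above all others, and the last 4 overlapped each other. In the wild-type library 3 UMIs came from endothelial-like nuclei, 32.7 CPM (6.75 to 95.6), and 0 from stellate-like, myeloid-like, lymphoid-like and cholangiocyte-like nuclei, which allows (at 3 UMIs) up to 30.4 CPM, 23.9 CPM, 44.6 CPM and 98.9 CPM. The order of the 2 leading cell types was therefore reversed between libraries, although the wild-type endothelial-like value rests on 3 UMIs. In endothelial-like nuclei the ratio between libraries was 0.69 (0.23 to 3.41).

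**Figure D2:**
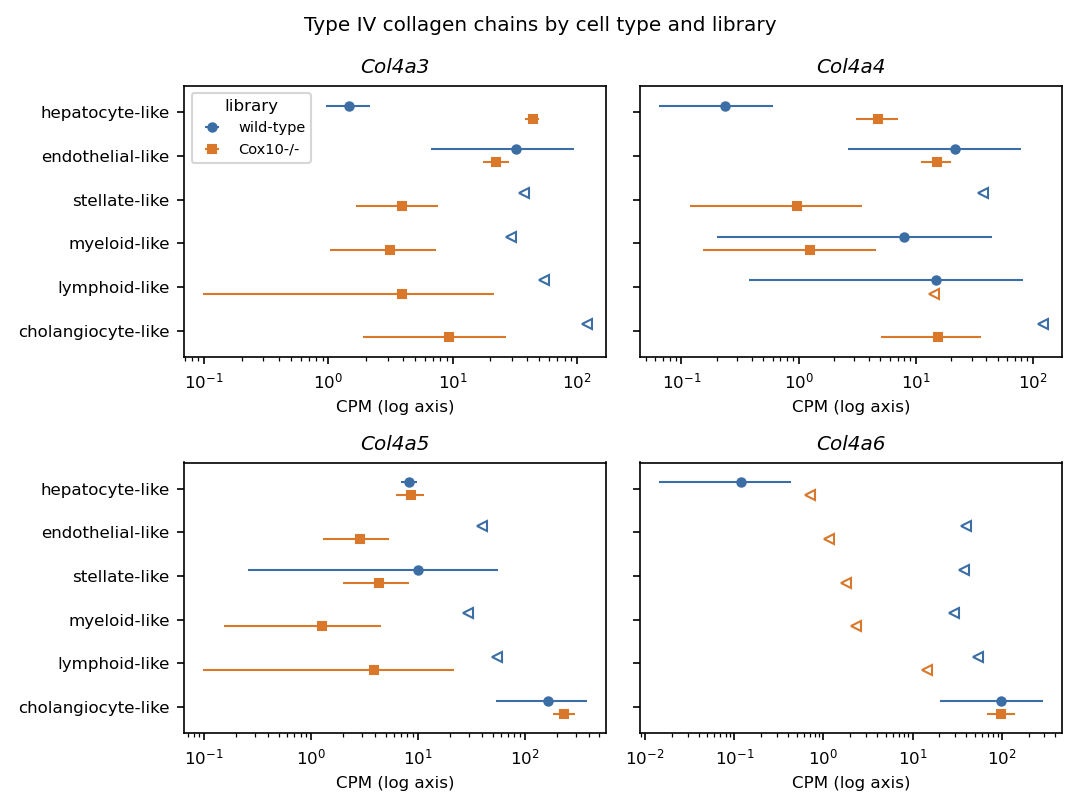
CPM of Col4a3, Col4a4, Col4a5 and Col4a6 (log axes) in 6 cell types of the wild-type (circles) and Cox10-/- (squares) library, with exact 95% Poisson intervals; an open triangle is the upper end of the interval where 0 UMIs were counted. Col4a3 in hepatocyte-like nuclei lies at 1.48 and 44.1 CPM, and Col4a6 has Cox10-/- UMIs in cholangiocyte-like nuclei only among the 6 types.

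Counted by nuclei, 152 of 1744 Cox10-/- hepatocyte-like nuclei had a Col4a3 UMI, 8.72% (7.43 to 10.1, Clopper-Pearson), against 25 of 5194 wild-type ones, 0.481% (0.312 to 0.710). The wild-type nuclei were the deeper, with a median of 2855.5 UMIs against 1650. After thinning to 1000 UMIs per nucleus, which left out 4 and 61 nuclei, the shares were 3.39% (2.58 to 4.37) and 0.173% (0.079 to 0.329). Myeloid-like nuclei of the Cox10-/- library had a UMI in 0.839% (5 of 596, median 2549.5 UMIs), and in 0.17% (0.004 to 0.944, 1 of 588) after thinning. Endothelial-like nuclei had one in 4.31% (3.31 to 5.50), and in 1.98% (1.32 to 2.86) after thinning. The Cox10-/- hepatocyte-like share was thus above that of myeloid-like nuclei with and without thinning. After thinning its interval overlapped that of endothelial-like nuclei.

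The Col4a3 level varied among hepatocyte-like clusters. The 6 wild-type clusters of 20 nuclei or more lay between 0 and 2.88 CPM, and the highest upper limit among them was 16.1 CPM, in the smallest cluster of 121 nuclei. Cox10-/- hepatocyte-like nuclei formed 2 clusters: 795 nuclei led by Meg3 had 51.3 CPM (44.6 to 58.8) and a UMI in 16.1% of nuclei, and 938 shallower nuclei led by Saa1, Saa2 and Cyp3a11 had 20.04 CPM (12.8 to 29.8) and a UMI in 2.45%. Saa1 and Saa2 encode acute-phase proteins. The interval of that second cluster covered the 22.5 CPM of endothelial-like nuclei in the same library, whereas that of the Meg3 cluster lay above it. The median depth of that second cluster was 1170 UMIs, against 2291 for its whole library. At a finer resolution 72 Cox10-/- nuclei led by Meg3, Rian and Slc1a2 stood at 121 CPM (89.8 to 159), with a UMI in 29.2% of nuclei, and a further 724 at 43.3 CPM (36.8 to 50.7).

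**Figure D3:**
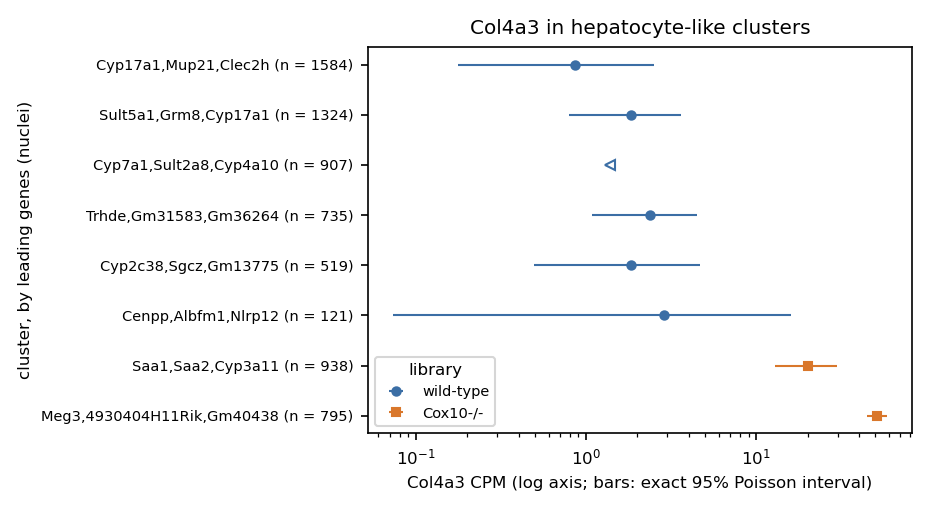
Col4a3 CPM (log axis) with exact 95% Poisson intervals in each hepatocyte-like cluster, named by its leading genes, for the library that holds it (circles wild-type, squares Cox10-/-; the open triangle is an upper limit at 0 UMIs). The 2 Cox10-/- clusters, at 20.04 and 51.3 CPM, lie above the point values of all 6 wild-type clusters.

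Col4a4, transcribed away from Col4a3 across the 71 bases, gave 4 and 25 UMIs in wild-type and Cox10-/- hepatocyte-like nuclei, 0.24 CPM (0.06 to 0.61) and 4.75 CPM (3.08 to 7.02), a ratio of 20.1 (6.94 to 79.4), or 36.1 (5.81 to 1493) on 1 and 21 UMIs with at most 10% mitochondrially encoded UMIs. Its level was higher in endothelial-like nuclei of the Cox10-/- library, at 15.2 CPM (11.2 to 20.2), than in hepatocyte-like ones, the opposite of Col4a3. In the 72 nuclei led by Meg3 and Rian it reached 19.4 CPM (8.35 to 38.1). Of the 1744 Cox10-/- hepatocyte-like nuclei 21 had a Col4a4 UMI, and 8 of those also had one of Col4a3. Col4a5, with which both chains form a trimer, was at 8.28 CPM (6.97 to 9.77) and 8.56 CPM (6.24 to 11.4) in hepatocyte-like nuclei of the 2 libraries, a ratio of 1.03 (0.721 to 1.45). So Col4a3 and Col4a4 were both higher in the Cox10-/- library, while the interval for Col4a5 covered no difference.

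Across all chains in hepatocyte-like nuclei, a gene was called between libraries when its levels differed at least 2-fold and the whole interval lay beyond 1.5-fold, provided the 2 sums held at least 20 of its UMIs. Of 21 chains that reached this count, 8 were higher in the Cox10-/- library, 3 were lower and 10 were not called. Of all 12561 genes, 8.78% were called higher and 3.35% lower, 12.1% in all. The median log2 ratio was 0.05 for the chains and -0.03 for all genes. A chain with few wild-type UMIs entered only through its Cox10-/- count, so the number called is no measure of the family as a whole. With nuclei of at most 10% mitochondrially encoded UMIs 5 chains were called higher, and with a minimum of 100 UMIs 3. Fewer than 21 chains reached the minimum under either setting, and the share of all genes called there was not computed.

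**Figure D4:**
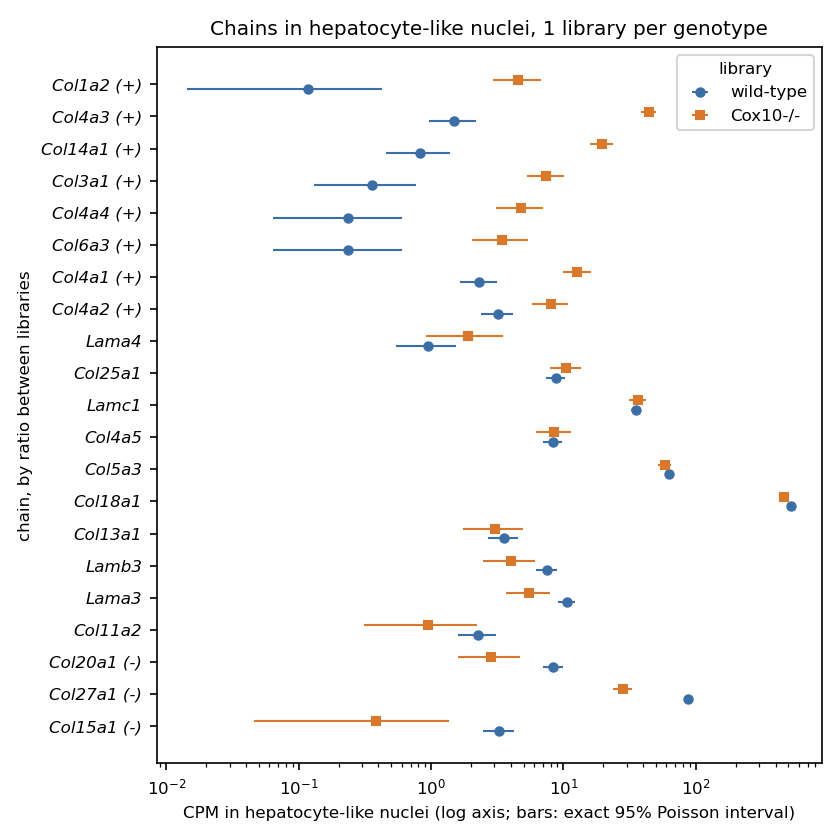
CPM (log axis) of the 21 chains with at least 20 UMIs in hepatocyte-like nuclei of the wild-type (circles) and Cox10-/- (squares) library, with exact 95% Poisson intervals, ordered by ratio; (+) and (-) mark chains called higher or lower in the Cox10-/- library. The 8 chains at the top were called higher and the 3 at the bottom lower.

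Beside Col4a3 and Col4a4, the chains called higher were Col14a1, Col1a2, Col3a1, Col6a3, Col4a1 and Col4a2, all led by stellate-like nuclei. Col14a1 was at 0.828 CPM (14 UMIs) and 19.4 CPM (102 UMIs) in the 2 libraries, a ratio of 23.4 (13.3 to 44.3). Col4a1 was at 2.31 CPM (39 UMIs) and 12.7 CPM (67 UMIs), a ratio of 5.52 (3.67 to 8.42). Col3a1 was at 0.355 CPM and 7.42 CPM and Col4a2 at 3.19 CPM and 7.99 CPM. Col1a2 and Col6a3 had 2 and 4 wild-type UMIs against 24 and 18. Without the shallow cluster led by Saa1 the ratio was 13.4 (7.21 to 26.4) for Col14a1 and 13.9 (5.37 to 42.2) for Col3a1, and Col1a2 and Col6a3 no longer had 20 UMIs. Without the highest 4% of doublet scores the Col1a2 ratio was 73.3 (12.0 to 3015) on 1 wild-type UMI. In myeloid-like and lymphoid-like nuclei of the Cox10-/- library pooled, Col14a1 was at 34.2 CPM, Col3a1 at 10.3 CPM, Col1a2 at 4.89 CPM, Col6a3 at 3.80 CPM, Col4a1 at 10.3 CPM and Col4a2 at 6.52 CPM. Only Col4a3 among the 8 was at least 2 times as high in hepatocyte-like nuclei as in the other named nuclei of the Cox10-/- library pooled, 44.1 CPM against 11.9 CPM. Against endothelial-like nuclei alone, at 22.5 CPM, the Col4a3 level was 1.96 times as high.

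Markers of several other cell types were higher in Cox10-/- than in wild-type hepatocyte-like nuclei. Over the 14 stellate markers, all with UMIs in both libraries, the summed level in hepatocyte-like nuclei was 64.0 CPM in wild-type and 260 CPM in Cox10-/-, and in Cox10-/- myeloid-like nuclei it was 416 CPM. In hepatocyte-like nuclei the 14 endothelial markers, 0 of them at 0, summed to 31.6 CPM and 92.0 CPM in the 2 libraries. The 17 myeloid markers summed to 20.5 CPM and 83.7 CPM, with 4 and 2 at 0, and the 11 cholangiocyte markers to 106 CPM and 198 CPM, with 4 and 2 at 0. Over the 15 chains with a separate stellate-like peak, summed levels in Cox10-/- hepatocyte-like nuclei were 2.55% (2.34 to 2.77) of those in stellate-like nuclei, in myeloid-like nuclei 2.09% (1.76 to 2.47), in lymphoid-like 3.41% (2.41 to 4.69) and in endothelial-like 9.06% (8.53 to 9.62). The part of RNA from these cell types in the higher calls, the companion genes Hspg2 and Ddr1 included, was not tested. Individual chains departed from the common share: Col25a1 and Lamc1 in hepatocyte-like nuclei were at 23.6% and 11.2% of their stellate-like level, and Col5a2 in endothelial-like nuclei at 62.8%, against 0.77% in hepatocyte-like nuclei.

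Of the chains called lower in Cox10-/- hepatocyte-like nuclei, Col27a1, a minor fibril chain of cartilage, had the most UMIs. It gave 1471 UMIs, 87.0 CPM (82.6 to 91.6), in wild-type and 147 UMIs, 27.9 CPM (23.6 to 32.9), in Cox10-/- nuclei, 3.11-fold lower (2.63 to 3.71). The 6 wild-type clusters lay between 66.3 CPM and 119 CPM, and the 2 Cox10-/- clusters at 32.1 CPM (26.8 to 38.2) and 9.2 CPM (4.59 to 16.4). Each cluster was almost wholly of 1 library, so these values are not separate from the ratio. At a finer resolution 23 wild-type nuclei stood at 49.5 CPM (10.2 to 145). That interval overlapped the one of 724 Cox10-/- nuclei, 32.5 CPM (26.9 to 39.0). Col15a1, a relative of Col18a1, gave 55 and 2 UMIs, 3.25 CPM and 0.38 CPM, 8.56-fold lower (2.26 to 72.4). Col20a1, a chain of fibril surfaces, was at 8.34 CPM (141 UMIs) and 2.85 CPM (15 UMIs), 2.92-fold lower (1.71 to 5.36). With at most 10% mitochondrially encoded UMIs Col20a1 was no longer called (2.57-fold lower), which left 2 lower calls, and Col15a1 was 14.0-fold lower.

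Of the 10 chains not called in hepatocyte-like nuclei, Col18a1 and Col5a3 had the most UMIs, with ratios of 0.90 (0.86 to 0.94) and 0.92 (0.81 to 1.05). Lamc1 had a ratio of 1.04 (0.87 to 1.22) and Col25a1 of 1.19 (0.86 to 1.64). For these 4 a difference of 2-fold lies outside the interval. Lama3 and Lamb3, chains of the same epithelial laminin, had ratios of 0.52 (0.34 to 0.77) and 0.54 (0.32 to 0.85). Lamb3 overlaps Hsd11b1, a hepatocyte gene, on the other strand, so its hepatocyte UMIs could be of either only if strand was not used in counting. The ratios of Col11a2, Col13a1 and Lama4, on 26 to 76 UMIs, had intervals that covered 1.

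In stellate-like nuclei Lama1, Col14a1, Col4a1, Lama2 and Lamc1 were called higher in the Cox10-/- library. These were 5 of 24 chains with at least 20 UMIs, with 0 called lower, and of all 8759 genes 2.75% were called higher, 5.77% lower and so 8.52% in either direction. Lama1 was at 70.8 CPM (28.5 to 146) in wild-type and 349 CPM (324 to 376) in Cox10-/- nuclei, a ratio of 4.93 (2.38 to 12.3). The ratio was 4.64 (3.24 to 6.89) for Col14a1, 3.75 (2.03 to 7.86) for Col4a1, 3.57 (1.80 to 8.30) for Lama2 and 2.67 (1.52 to 5.20) for Lamc1. Col3a1 was not called, with a ratio of 1.32 (0.84 to 2.21), nor was Col1a2 at 3.13 (1.33 to 9.71). Point ratios under 1 were found for Col18a1 (0.47), Col5a3 (0.46), Col27a1 (0.44) and Lamb3 (0.35), which were not called. Chains with few wild-type UMIs passed the minimum through the Cox10-/- sum. The 33 wild-type nuclei limit these values, since 7 to 30 of their UMIs stand behind each call. When nuclei were named one by one from marker UMIs, 12 chains were called higher, and the share of all genes called was not computed.

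**Figure D5:**
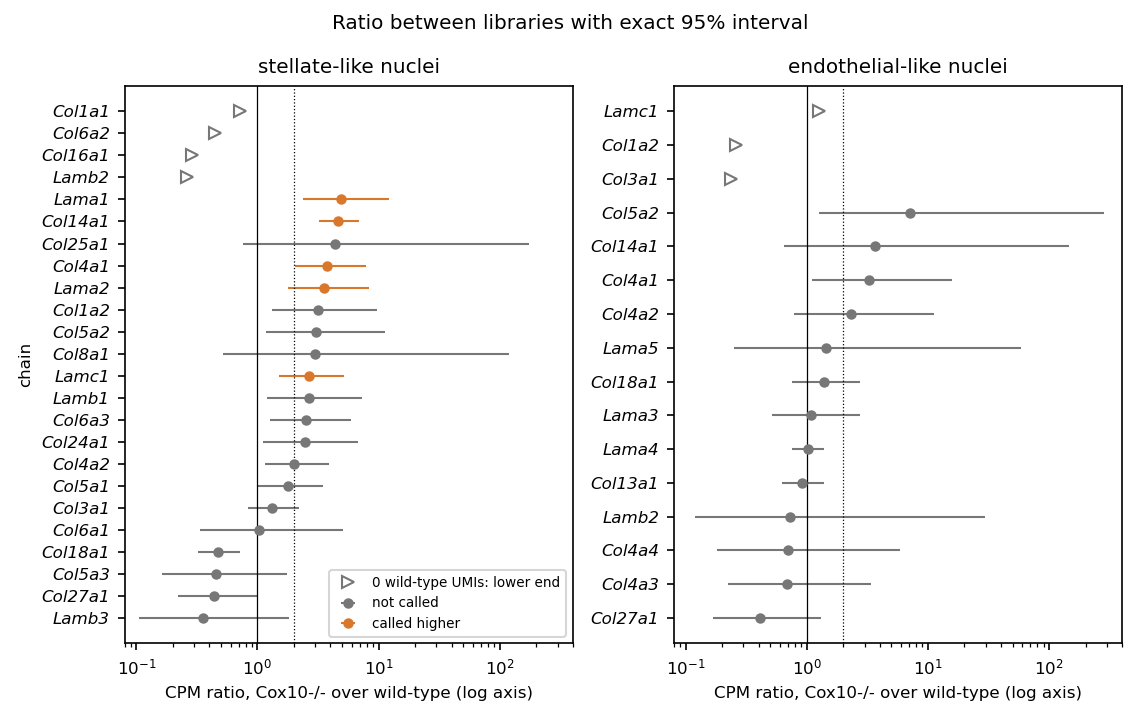
Ratio of CPM between the Cox10-/- and wild-type library (log axis) with exact 95% intervals for 24 chains in stellate-like and 16 in endothelial-like nuclei; orange marks chains called higher, open triangles the lower end where the wild-type library had 0 UMIs, the solid line 1 and the dotted line 2. Orange is seen for 5 stellate-like chains and for 0 endothelial-like chains.

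The stellate-like nuclei of the 2 libraries differed in makeup. At a finer resolution they formed a cluster led by Lsamp and Gucy1a2 (5 wild-type and 409 Cox10-/- nuclei) and a cluster led by Ptprt and Ano1 (28 and 340). Within the second cluster alone the ratio between libraries was 3.97 (2.65 to 6.22) for Col14a1, 4.01 (1.81 to 11.0) for Col4a1, 4.71 (2.14 to 12.9) for Lama2, 4.63 (1.95 to 14.4) for Lamc1 and 3.02 (1.36 to 8.34) for Lama1. By the same rule Lama1 was not called there. Col1a2, at 5.63 (1.89 to 27.6), and Col6a3, at 4.50 (2.04 to 12.4), met the rule there, on 3 and 6 wild-type UMIs. Between the clusters in the Cox10-/- library, 5 of 24 chains were called, beside 0.641% of 8575 genes higher in the first and 0.77% higher in the second. The first cluster was higher in Col8a1, 48.7 CPM against 3.54 CPM, in Col25a1, 61.1 CPM against 20.1 CPM, and in Lama1, 447 CPM against 209 CPM. The second was higher in Col1a1, 47.3 CPM against 14.0 CPM, and in Col6a3, 312 CPM against 131 CPM. Lama1 and Col6a3 were also among the 10 leading genes of these clusters.

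In endothelial-like nuclei 16 chains reached 20 UMIs and 0 were called in either direction, where of 9951 genes 0.703% were called higher, 0.804% lower and so 1.51% in either direction. Lama4 had a ratio of 1.02 (0.755 to 1.40) and Col13a1 of 0.91 (0.62 to 1.38), which leave out a 2-fold difference. The ratio of Col4a1 was 3.26 (1.11 to 15.9) on 3 wild-type UMIs, and that of Col5a2 7.11 (1.27 to 282) on 1. With 46 wild-type nuclei, differences of that size could not be resolved. When nuclei were named one by one from marker UMIs, 7 chains were called higher and 2 lower, with no share of all genes computed beside them. No statement follows that endothelial-like and stellate-like nuclei differ from each other in response, since that difference was not tested.

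Myeloid-like nuclei had 4 chains with at least 20 UMIs. Col18a1 and Col27a1 were called lower in the Cox10-/- library, 2.41-fold (1.71 to 3.33) and 4.42-fold (1.58 to 10.9), and 0 chains higher. Only 1 of the 2 was called under 8 alternatives, among them resolutions 0.5 and 2.0 and TMM or DESeq2 scaling. Of 8073 genes 4.89% were called lower, 2.16% higher and so 7.05% in either direction. Both chains are abundant in hepatocyte-like nuclei, which made up 95.3% of the wild-type library, and the part of hepatocyte RNA in these values was not tested. Col14a1 and Lamc1 were not called.

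Genes that assemble, bind or degrade the chains were taken from 5 lists. Among basement membrane partners, 9 of 10 had at least 20 UMIs in all. Smoc1, a calcium-binding matricellular protein, was highest in hepatocyte-like nuclei of the Cox10-/- library at 661 CPM. Sparc, a collagen-binding chaperone, Pxdn, the peroxidase that crosslinks type IV collagen, and Nid1, which links laminin to type IV collagen, were highest in stellate-like nuclei at 301 CPM, 127 CPM and 109 CPM. The Nid1 peak was not separate, with 84.9 CPM in endothelial-like nuclei. Between libraries in hepatocyte-like nuclei, 3 of 6 partners were called higher (Nid1, Hspg2 and Sparc) and 0 lower, beside 8.78% and 3.35% of all genes. Genes with few wild-type UMIs, such as Nid1 with 6 against 28, reached 20 UMIs only through the Cox10-/- sum. The numbers called here and in the other lists are thus no measure of a list as a whole.

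Of 22 collagen processing genes 11 were highest in stellate-like nuclei, 4 in myeloid-like, 3 in cholangiocyte-like, 2 in hepatocyte-like, 1 in endothelial-like and 1 in lymphoid-like nuclei. Over all genes these shares were 10.4%, 14.7%, 19.8%, 17.9%, 12.3% and 24.9%. The stellate-like peak was separate for 8 of the 22, beside 3.19% of all genes. Adamts2, a procollagen N-proteinase, was at 253 CPM and P3h2, a prolyl 3-hydroxylase of type IV collagen, at 221 CPM there. P4hb, a subunit of prolyl 4-hydroxylase, was broad, from 186 CPM in cholangiocyte-like to 320 CPM in lymphoid-like nuclei, and Mia3, which exports large collagens from the endoplasmic reticulum, was highest in hepatocyte-like nuclei at 275 CPM. In hepatocyte-like nuclei 2 of 12 were called higher, Serpinh1 and Crtap, and 0 lower, beside 8.78% and 3.35% of all genes. Both were highest in stellate-like nuclei, though the Crtap peak was not separate.

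Of 13 receptors 7 were highest in cholangiocyte-like, 4 in stellate-like, 1 in hepatocyte-like and 1 in lymphoid-like nuclei. Over all genes these shares were 19.8%, 10.4%, 17.9% and 24.9%. The stellate-like peak was separate for 2 receptors, beside 3.19% of all genes. Among the cholangiocyte-like peaks only those of Itgb4 and Ddr1 were separate, and 2.48% of all genes had a separate peak there. The collagen-binding integrin chain Itga1 was at 968 CPM in stellate-like and 659 CPM in endothelial-like nuclei, Itgb1 at 386 CPM in lymphoid-like and 367 CPM in stellate-like nuclei, and the collagen receptor kinase Ddr2 at 197 CPM in stellate-like nuclei. Itga2 and Dag1 were highest in cholangiocyte-like nuclei, both at 102 CPM. The peaks of Itgb1, Itga2 and Dag1 were not separate. Of 9 receptors tested in hepatocyte-like nuclei 1 was called higher, Ddr1, and 0 lower, beside 8.78% and 3.35% of all genes. Its level was 0.296 CPM (5 UMIs) in wild-type and 6.84 CPM (36 UMIs) in Cox10-/- nuclei, and cholangiocyte-like nuclei of the Cox10-/- library held 71.3 CPM.

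Among degradation genes Timp3, a matrix-bound protease inhibitor, was at 361 CPM in stellate-like and 210 CPM in endothelial-like nuclei. Mmp12, macrophage elastase, was at 128 CPM in myeloid-like nuclei, and Reck, a membrane inhibitor of metalloproteinases, at 66.1 CPM in stellate-like nuclei. Mmp14 and Mmp15, membrane-bound metalloproteinases, were called higher in Cox10-/- hepatocyte-like nuclei, with ratios of 2.28 (1.71 to 3.04) and 2.09 (1.66 to 2.61), as were Timp2 and Timp3. Reck was called lower, 3.11-fold (2.49 to 3.93), which makes 4 higher and 1 lower of 7, beside 8.78% and 3.35% of all genes. Of the TGF-beta list 3 of 10 were called higher (Tgfbr2, Ccn2 and Ltbp4) and 1 lower (Tgfbr3), beside the same 8.78% and 3.35%. Tgfbr3 was at 947 CPM and Ltbp1, which stores latent TGF-beta in matrix, at 249 CPM in stellate-like nuclei, Tgfbr1 at 395 CPM in myeloid-like and Smad3 at 265 CPM in lymphoid-like nuclei. The Smad3 peak was not separate, with 205 CPM in cholangiocyte-like nuclei. Tgfbr2 was at 10.9 CPM (184 UMIs) in wild-type and 49.1 CPM (258 UMIs) in Cox10-/- hepatocyte-like nuclei, a ratio of 4.51 (3.72 to 5.47).

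The other 16 chains stayed under 20 UMIs over both libraries. Just outside the limit were Col9a3 with 18 UMIs, Col6a6 with 17, Col7a1 with 13 and Col10a1 with 11, and inside it Col12a1 with 30 and Col4a6 with 37. Col17a1 and Col22a1 had 9 each, Col19a1 7, Col28a1 5, Col26a1 3, Col8a2 2 and Col11a1 1. Col2a1, Col6a4, Col6a5, Col9a1 and Col9a2, chains of cartilage or of type VI collagen, had 0 UMIs over both libraries. Among the kept chains, Col12a1, Col15a1, Col16a1, Col23a1, Lama5 and Lamb2 had 30 to 92 UMIs over both libraries.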

How the data were processed

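Nuclei were profiled with 10x 3' chemistry, 1 library per genotype, and per the submitters' processing notes Cell Ranger 7.0 and mm10 were used. The authors deposited raw UMI counts per gene and nucleus for both libraries, with 601 to 3999 genes per nucleus, and no lineage names were used from elsewhere. Whether counting used strand is not given in the sources used here.

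All deposited nuclei were kept. Counts were scaled to 10000 per nucleus and clustered without collagen, laminin and mitochondrially encoded genes (scanpy 1.11.5, leidenalg 0.10.2; 2000 variable genes, 30 components, 15 neighbours, resolution 1.0, no integration). A cluster was named where its markers exceeded those of the other clusters by a mean log2 of at least 1.5 and the next class reached at most 0.5 of that. Hepatocyte-like clusters needed any excess with every other class under 0.5. Both limits were chosen with the clusters in view. Scrublet marked 0 and 14 nuclei (0.27% of the Cox10-/- library), which is too few to have worked, so no doublets were removed.

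UMIs were summed per library and cell type. Levels have exact Poisson intervals and ratios exact conditional binomial ones (scipy 1.17.1), at 95%. With 1 library per genotype the depth of each sum sets the precision: 1 UMI is worth 0.0592 CPM in wild-type and 0.190 CPM in Cox10-/- hepatocyte-like nuclei, and 10.1 CPM in wild-type stellate-like nuclei. Calling was tried on simulated counts before use. The members, marker lists and companion lists were chosen with earlier results of these data known. The genes named are Col4a3, Col4a4 and Col4a5, the 3 highest chains per cell type, every called chain, those nearest 20 UMIs and up to 4 of each companion list by level. Other named chains and the sub-cluster comparisons were chosen after values were seen. Alternatives covered quality limits, resolution, naming, scaling (edgeR 4.0.16 and DESeq2 1.42.0 factors) and count minimums. Values of 1 kept chain are not reported here, although it is part of the counts and sums.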

Additional observations from a re-analysis of the deposited data

How the results depend on the processing

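No paired analysis was possible because each genotype has 1 library, and no library could be left out. Across 15 settings and 28 results, 166 of 215 alternative values stayed close to the main value and 49 moved. A change of direction was looked for only in the Col4a3 ratio, where 0 alternative values showed it. The Col4a3 ratio in hepatocyte-like nuclei was 29.9 with at most 10% mitochondrially encoded UMIs, and 34.6 without the shallow cluster, a setting chosen after seeing the data. Calls by the mean over nuclei used the 2-fold limit alone, without an interval, so their numbers come from a looser rule. Chains called higher in hepatocyte-like nuclei numbered 8, and 5 at that mitochondrial limit, 3 with at least 100 UMIs and 14 with no minimum. Chains called lower numbered 3, and 6 by the mean over nuclei. In stellate-like nuclei the 5 higher calls became 12 with nuclei named one by one from marker UMIs and 15 by the mean over nuclei, and the 0 lower calls 2 and 3. In endothelial-like nuclei the 0 higher calls became 7 under each of those settings, and the 0 lower calls 2 by marker UMIs and 1 with no minimum. In myeloid-like nuclei the mean over nuclei gave 1 higher call, and 1 of the 2 lower calls was left at resolutions 0.5 and 2.0, with collagen and laminin genes kept, without the top 4% of doublet scores, by marker UMIs, with TMM or DESeq2 scaling and with at least 100 UMIs. Of chains by highest cell type, the hepatocyte-like 3 became 6 with no minimum. The endothelial-like 3 became 6 at the mitochondrial limit, 5 by marker UMIs and 6 with no minimum. The myeloid-like 0 became 5 at the mitochondrial limit and 1 at resolution 0.5, with the genes kept and with no minimum. The lymphoid-like 4 became 2 with at least 100 UMIs, and the cholangiocyte-like 10 became 6 by marker UMIs and 2 with at least 100 UMIs. By marker UMIs the summed level was 895 CPM and 1379 CPM in wild-type endothelial-like and stellate-like nuclei, and 1468, 3914, 339 and 947 CPM in Cox10-/- endothelial-like, stellate-like, lymphoid-like and cholangiocyte-like nuclei. At the mitochondrial limit it was 1584, 4778, 328, 544 and 1769 CPM in Cox10-/- endothelial-like, stellate-like, myeloid-like, lymphoid-like and cholangiocyte-like nuclei. Resolution 0.5 gave 342 CPM in myeloid-like and 1091 CPM in cholangiocyte-like nuclei, and leaving out high doublet scores 334 CPM in lymphoid-like and 1411 CPM in cholangiocyte-like nuclei. Thinning gave Col4a3 shares of 0.173% and 3.39%. Leaving out clusters under 0.5 of their library's median depth selected 0 clusters and gave no value. The mitochondrial limit left 0, 8 and 2 wild-type endothelial-like, stellate-like and myeloid-like nuclei, so between-library values outside hepatocytes could not be had there. The number of chains tested also changed with some settings, and shares of all genes called were computed for the main setting only. The cause of each move was not tested.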

Other observations

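The nuclei left unnamed, 461 in the Cox10-/- library and 110 in the wild-type library, also held matrix chains. Their summed level was 1599 CPM (1541 to 1657) in the Cox10-/- library and 795 CPM (709 to 889) in the wild-type library. Col14a1 was at 353 CPM (326 to 381) in the unnamed Cox10-/- nuclei, of which 137 formed a cluster with stellate markers led by Zfp804b and Tafa1. Lamc1 was at 156 CPM (138 to 175) there, above its level in every named cell type except stellate-like nuclei. Col12a1, which coats fibrils, had 16 of its 22 Cox10-/- UMIs in unnamed nuclei, 8.70 CPM (4.97 to 14.1). In the unnamed wild-type nuclei, of which 92 lay in a cluster led by Kitl and Emcn with endothelial markers, Lama4 was at 80.0 CPM (54.4 to 113) and Col13a1 at 67.1 CPM (43.8 to 98.3).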
